A study of Homo sapiens with 8 samples.

Results

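RNA levels of 10 inflammatory cytokines and chemokines, CXCL1, CXCL2, CXCL3, CXCL5, CXCL8, IL6, IL1A, IL1B, LIF and CCL2, were compared in 2 lung cancer cell lines and their drug-resistant variants. The members were taken by gene symbol from the table of counts, as 10 of the 37441 genes listed there. The cell lines NCI-H1581 and NCI-H1703 were derived from non-small cell lung cancer, and both respond to CPL304110, an inhibitor of the fibroblast growth factor receptors (FGFR). The resistant variants NCI-H1581R and NCI-H1703R were each grown from their line in rising amounts of CPL304110 over 4 to 6 months, starting at 50 nM and ending at 2.5 µM for NCI-H1581R and 5 µM for NCI-H1703R. All 4 kinds of cells were harvested 24 h after fresh medium was added, and whether that medium held the inhibitor is not given in the sources used here. The 2 lines were maintained in different culture media, so differences between lines and between media cannot be told apart. Each variant was sequenced in 2 replicates, which gave 8 libraries with totals between 33800389 and 40031710 counts. Each resistant variant is 1 selected population, so the p-values below measure the spread between repeated cultures of that population and not between separate selections.

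Chemokines are small secreted proteins that draw leukocytes along a gradient. CXCL1, CXCL2, CXCL3, CXCL5 and CXCL8 are ligands of the receptor CXCR2 and attract neutrophils, and CCL2 attracts monocytes through CCR2. IL6 and LIF belong to a single cytokine family, whose members signal through the shared subunit IL6ST (gp130) to STAT3, while IL1A and IL1B are the agonists of the interleukin-1 receptor and drive NF-kappaB. Many tumour cells transcribe these genes themselves, commonly under NF-kappaB, AP-1 and C/EBP factors, and their mRNAs are short-lived, with AU-rich elements that bind decay factors such as ZFP36.

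The 4 members with substantial RNA were CCL2, LIF, CXCL1 and CXCL3, and they were found almost wholly in NCI-H1703 and NCI-H1703R. A member was taken to have too few counts in a line when neither variant reached a mean of 10 counts over its 2 replicates. By this measure 6 of the 10 members had too few counts in both lines, namely CXCL2, CXCL5, CXCL8, IL6, IL1A and IL1B. In the NCI-H1581 cells of both variants, 9 members had too few counts, and LIF was the exception. A total of at least 10 counts over the 8 libraries was needed for a test, and 6 members passed it, while CXCL8, IL6, IL1A and IL1B did not.

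**Figure D1:**
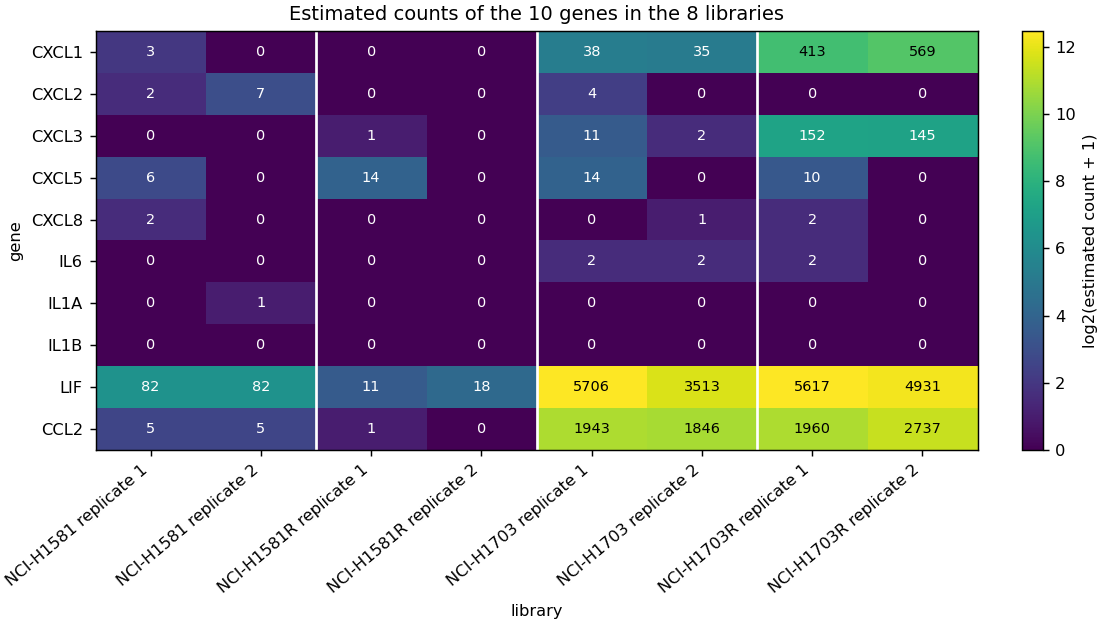
Estimated counts of the 10 genes (rows) in the 8 libraries (columns), with the count in each cell and the colour on a log2(estimated count + 1) scale. LIF and CCL2 fill the 4 NCI-H1703 and NCI-H1703R columns, CXCL1 and CXCL3 are high in the 2 NCI-H1703R columns, and the other 6 genes have 14 counts or fewer in every library.

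The interleukin-1 agonists and IL6 were at or near 0. IL1B had 0 counts in all 8 libraries, and IL1A had 1 count, in replicate 2 of NCI-H1581. IL6 had 2 counts in each NCI-H1703 replicate, 2 and 0 in NCI-H1703R and 0 in the other 4 libraries. A library with fewer than 3 counts was taken as not showing a gene, so none of the 3 was detected at this depth. In CPM, which here means counts divided by the library total and its TMM factor, this floor of 3 counts lay between 0.0749 and 0.0897, and it covers counting error only.

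Of the ligands of CXCR2, CXCL8 (interleukin-8) was not detected either, with 2 counts each in replicate 1 of NCI-H1581 and of NCI-H1703R, 1 count in replicate 2 of NCI-H1703 and 0 elsewhere. CXCL2 had 2 and 7 counts in sensitive NCI-H1581 cells and 4 and 0 counts in sensitive NCI-H1703 cells, and it was at 0 in all 4 libraries of resistant cells. CXCL5 had 6 counts in NCI-H1581, 14 in NCI-H1581R, 14 in NCI-H1703 and 10 in NCI-H1703R, each time in replicate 1, and 0 in replicate 2 of all 4 variants. Its few counts thus followed the replicate number and not the line or the variant. No direction is given for CXCL2 or CXCL5. In GENCODE v44 (GRCh38), 422 exonic bases of CXCL5 (chr4:73995642-73998677, minus strand) also belong to a gene on the plus strand, and the strandedness of the libraries is not given in the sources used here.

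CXCL1 and CXCL3 were far higher in NCI-H1703R than in NCI-H1703. CXCL1, also known as growth-regulated alpha protein (ENSG00000163739, chr4:73869393-73871308, plus strand, GRCh38), had 38 and 35 counts in NCI-H1703 and 413 and 569 in NCI-H1703R, which corresponds to 1.03 and 1.05 CPM against 10.9 and 15.0 CPM. Both resistant libraries lay above both sensitive ones, and the distance between the variants was larger than that between replicates. In such bulk RNA, more cells with the transcript and more RNA per cell cannot be told apart. The means were 1.04 ± 0.0138 CPM (SD, n = 2) in NCI-H1703 and 13.0 ± 2.90 CPM (SD, n = 2) in NCI-H1703R. CXCL1 rose 12.7-fold, a log2 fold change of 3.67 (SE 0.26) with an adjusted p of 0.000903 in edgeR's quasi-likelihood test, adjusted by Benjamini-Hochberg over all genes tested.

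CXCL3, the close paralogue of CXCL1 (ENSG00000163734, chr4:74036589-74038807, minus strand), had 11 and 2 counts in NCI-H1703 and 152 and 145 in NCI-H1703R, or 0.297 and 0.0598 CPM against 4.02 and 3.83 CPM. The variants did not overlap, and 1 of the sensitive libraries was below the floor of 3 counts. The rise was 21.8-fold, with a log2 fold change of 4.45 (SE 0.63) and an adjusted p of 0.0107 (edgeR's quasi-likelihood test, Benjamini-Hochberg). Its size rests on the thinly counted NCI-H1703 replicates, since the log2 fold change was 5.97 without replicate 1 and 3.76 without replicate 2, and the call was kept in both fits. Of the 6 members tested in NCI-H1703R against NCI-H1703, 2 were called, both of them higher, while 14.4% of all 18203 genes tested were called and 6.94% were called higher.

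**Figure D2:**
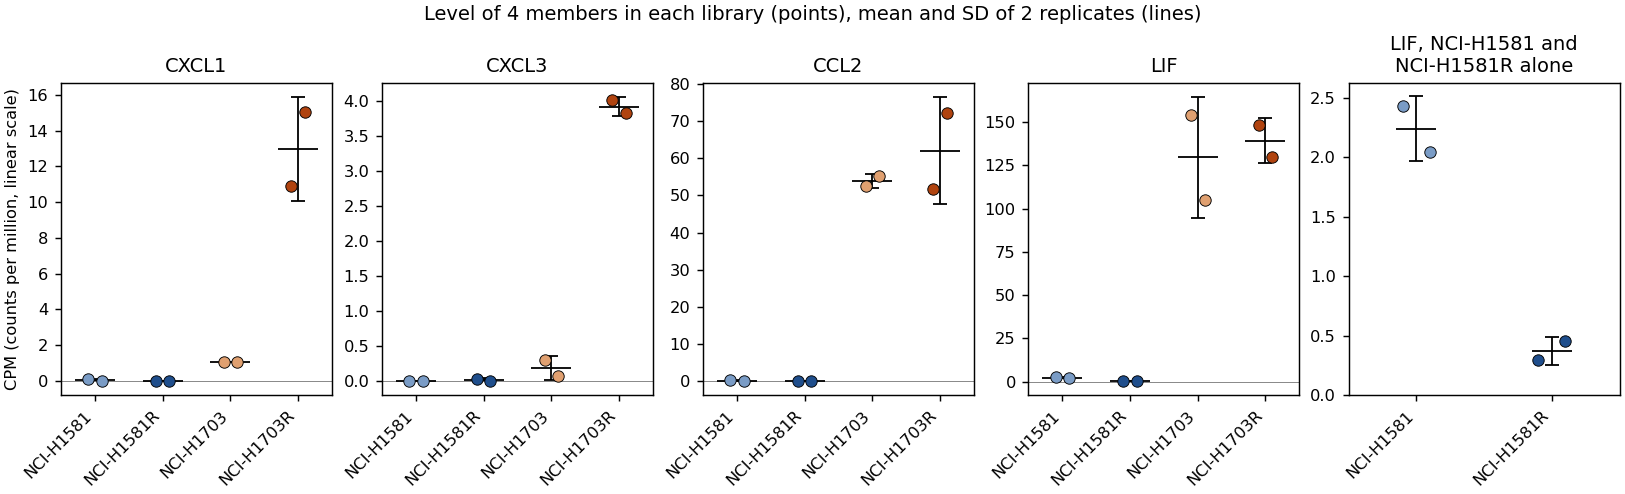
CPM of CXCL1, CXCL3, CCL2 and LIF in each library (points) on linear axes, with the mean and SD of the 2 replicates of each variant (horizontal and vertical lines), and LIF again for NCI-H1581 and NCI-H1581R alone. CXCL1 and CXCL3 stand apart in NCI-H1703R, CCL2 and LIF overlap between NCI-H1703 and NCI-H1703R, and LIF falls from 2.43 and 2.05 CPM in NCI-H1581 to 0.292 and 0.457 CPM in NCI-H1581R.

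CXCL1, CXCL2 and CXCL3 arose by gene duplication and resemble each other closely. In GENCODE v44 transcripts, 13.7% of the stretches of 31 bases in CXCL1 also occur in another gene (CXCL2, CXCL3 or the pseudogene CXCL1P1), and the share was 9.23% for CXCL3 and 23.5% for CXCL2. Reads from such stretches could be divided between the genes by the authors' quantification, so the exact levels of CXCL1 and CXCL3 are uncertain, by an amount not measured here. The shares are over all listed transcripts, with 1332 stretches in CXCL1 and 2275 in CXCL3. The canonical transcripts have 1174 and 1075 bases, so the 2 shares are not alike. CXCL2 was at 0 counts in both NCI-H1703R libraries, in which CXCL1 and CXCL3 were highest. No stretch of 31 bases in LIF or CCL2 was shared with another gene.

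The resemblance extends to the promoters. The 120 bases before the start are shown for these 3 paralogues because CXCL1 and CXCL3 rose together in NCI-H1703R while CXCL2, whose promoter carries the same 11 bases, had 0 counts there. The sequences are from RefSeq (GRCh38.p14), written 5′ to 3′ on the strand of the gene, at chr4:73869273-73869392 (plus strand) for CXCL1, chr4:74099196-74099315 (minus strand) for CXCL2 and chr4:74038690-74038809 (minus strand) for CXCL3. The start is that of RefSeq. For CXCL3 it lies inside the GENCODE bounds given above, which reach 74038807, so most of the printed stretch is within that gene entry. Capitals mark the matches to the 10-letter consensus of NF-kappaB, 1 on each strand and overlapping by all but 1 base.
CXCL1: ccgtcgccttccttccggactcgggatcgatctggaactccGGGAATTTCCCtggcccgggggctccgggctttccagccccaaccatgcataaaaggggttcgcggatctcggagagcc
CXCL2: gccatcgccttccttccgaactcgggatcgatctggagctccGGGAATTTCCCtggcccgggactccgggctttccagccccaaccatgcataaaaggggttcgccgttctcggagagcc
CXCL3: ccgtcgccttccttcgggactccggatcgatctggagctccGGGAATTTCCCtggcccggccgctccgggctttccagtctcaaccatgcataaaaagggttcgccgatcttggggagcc

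The NF-kappaB matches began 79 bases before the start in CXCL1 and CXCL3 and 78 bases before it in CXCL2. Over the 250 bases before the start, CXCL1 and CXCL3 were 81.4% identical, CXCL2 was 71.4% identical to CXCL1 and 73.3% to CXCL3, and the other pairs among the 5 CXC members lay between 44.7% and 54.8%. Promoter windows from 250 bases before to 50 bases after the start were present for 8 members, and LIF and CCL2 had no entry. The NF-kappaB consensus, searched on both strands, was found in 5 of these 8 members (CXCL1, CXCL2, CXCL3, CXCL5 and IL6) and in 5.91% of all 35116 windows of the table. The AP-1 consensus TGANTCA, also searched on both strands, was found in CXCL8 and IL1A and in 7.71% of all windows. TATAAA, searched on the strand of the gene, was found in the same 2 members and in 7.33% of all windows. It began 31 bases before the start in CXCL8. In IL1A it began 239 bases before 1 of its 2 listed starts, and the other window had none. A member was counted if any of its windows held a match, while the shares are per window. These matches are a description of the letters and not of binding, and they do not separate the members that rose from those at 0.

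**Figure D3:**
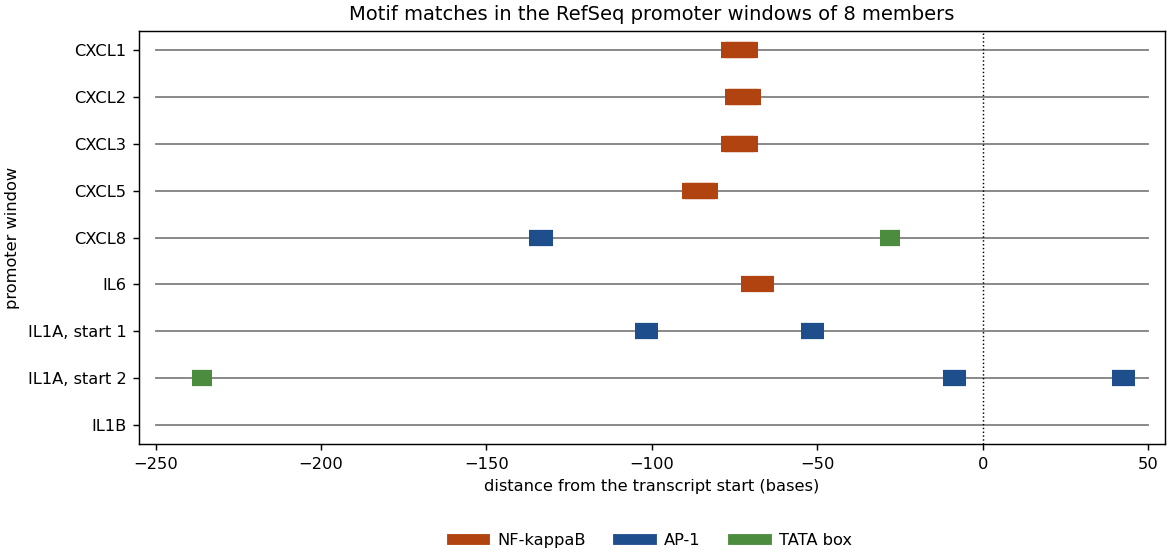
Matches to the NF-kappaB, AP-1 and TATA box consensus (coloured blocks) in the RefSeq promoter windows of 8 members (lines), by distance in bases from the transcript start (dotted line); IL1A has 2 listed starts whose windows overlap. CXCL1, CXCL2, CXCL3, CXCL5 and IL6 carry an NF-kappaB match between 91 and 64 bases before the start.

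The 5 CXC members lie within 359 kb of chromosome 4, at chr4:73740519-74099196. Within 1000000 bases on either side, 8 other genes could be tested. RASSF6, EREG, AREG, BTC and PARM1 had a mean below 10 counts in every variant, so they can show little. In edgeR's quasi-likelihood test none of the 8 was called in NCI-H1703R or in NCI-H1581R. At an unadjusted p under 0.05 there were 2 in NCI-H1703R and 0 in NCI-H1581R, and DESeq2 called 0 in each. With the replicate number as a block, 3 of the 8 were called higher in NCI-H1703R, against 35.5% of all genes tested in that fit. MTHFD2L, a mitochondrial folate enzyme and the tested gene nearest to CXCL2 beside the members, had 3.51 and 2.96 CPM in NCI-H1703 and 5.10 and 5.44 CPM in NCI-H1703R. Its libraries did not overlap, and its log2 fold change of 0.73 (SE 0.24) had an adjusted p of 0.124 (edgeR's quasi-likelihood test, Benjamini-Hochberg). The variants did not overlap for COX18 and ANKRD17 either, at log2 fold changes of 0.37 and 0.10 in NCI-H1703R, and neither was called in that test.

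**Figure D4:**
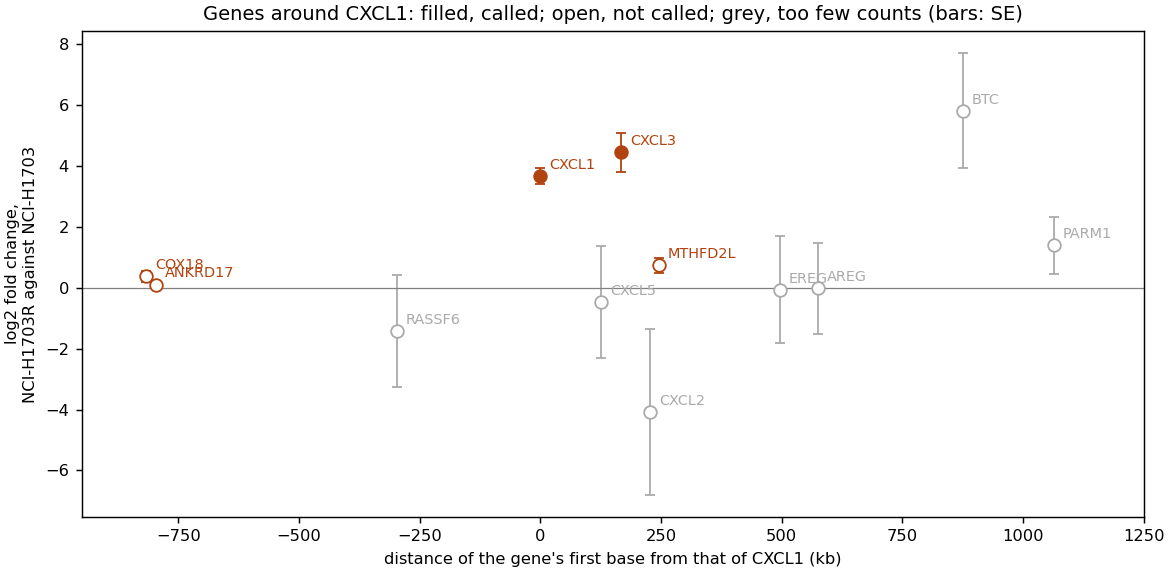
Log2 fold change of NCI-H1703R against NCI-H1703 (points, bars show the SE) for tested genes by the distance in kb of their first base from that of CXCL1; filled points were called at an adjusted p under 0.1, and grey points had too few counts in this line. CXCL1 (3.67) and CXCL3 (4.45) are the only called genes in the region, while MTHFD2L, COX18 and ANKRD17 lie between 0.09 and 0.73.

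CCL2 and LIF were abundant in both variants of NCI-H1703 and did not differ between them beyond the replicate spread. CCL2 (ENSG00000108691, chr17:34255274-34257208, plus strand) had 52.5 and 55.2 CPM in NCI-H1703 and 51.8 and 72.2 CPM in NCI-H1703R. The lower resistant library was below both sensitive ones, so the variants overlapped. The log2 fold change was 0.23 (SE 0.16), with an adjusted p of 0.460 in edgeR's quasi-likelihood test, adjusted by Benjamini-Hochberg. With the replicate number as a block, its log2 fold change of 0.22 had an adjusted p of 0.0425 in edgeR's quasi-likelihood test, in a fit that called 35.5% of all genes. CCL2 went opposite ways in the same-numbered libraries, slightly lower with resistance in replicate 1 and higher in replicate 2. In fits without the block, the log2 fold change was 0.46 when replicate 1 of NCI-H1703R was left out. It was -0.03 when replicate 2 of NCI-H1703R was left out, so its size and sign depended on 1 library.

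LIF (ENSG00000128342, chr22:30240453-30246759, minus strand) had 154 and 105 CPM in NCI-H1703 and 149 and 130 CPM in NCI-H1703R. Both resistant libraries lay between the sensitive ones. Its log2 fold change of 0.14 (SE 0.18) had an adjusted p of 0.721 (edgeR's quasi-likelihood test, Benjamini-Hochberg), and 0.103 with the replicate block. In GENCODE v44, 169 exonic bases of LIF are overlapped by LIF-AS1 and LIF-AS2 on the plus strand.

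LIF was the 1 member with enough counts in NCI-H1581, and it fell with resistance. It had 82 counts in each NCI-H1581 replicate and 11 and 18 in NCI-H1581R, or 2.43 and 2.05 CPM against 0.292 and 0.457 CPM. Both resistant libraries lay below both sensitive ones. The mean was 2.24 ± 0.273 CPM (SD, n = 2) in NCI-H1581 and 0.375 ± 0.117 CPM (SD, n = 2) in NCI-H1581R, a 5.87-fold fall. The log2 fold change was -2.55 (SE 0.55) with an adjusted p of 0.0304 (edgeR's quasi-likelihood test, Benjamini-Hochberg). Of the 6 members tested in NCI-H1581R against NCI-H1581, all but LIF had too few counts in this line. LIF was the 1 called, against 14.2% of all genes tested and 7.09% called lower. With the replicate block it was again the 1 called, and 18.3% of all genes were.

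CCL2 had 5 and 5 counts in NCI-H1581 and 1 and 0 in NCI-H1581R, and CXCL1 had 3 and 0 against 0 and 0, so neither can be given a direction in this line. CXCL3 was seen once, with 1 count in replicate 1 of NCI-H1581R. A single fit of all 8 libraries called CCL2 as well as LIF in NCI-H1581R, on those few counts.

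The change of LIF with resistance differed between the lines. The interaction of line and variant, fitted on all 8 libraries, gave 2.66 (SE 0.39) on the log2 scale for the change in NCI-H1703R minus that in NCI-H1581R, with an adjusted p of 0.00398 (edgeR's quasi-likelihood test, Benjamini-Hochberg). Of the 6 members tested, 3 were called in this interaction, against 16.1% of all genes, and the same 3 with the replicate block, against 13.7%. The other 2, CXCL1 and CCL2 (adjusted p of 0.0527 and 0.0575 in edgeR's quasi-likelihood test), had 5 counts or fewer in every NCI-H1581 and NCI-H1581R library, so the difference of their changes rests on values at or close to the floor. Both calls were lost at an adjusted p under 0.05 and when bias-adjusted quasi-dispersions were used.

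Between the lines, LIF, CCL2 and CXCL1 were higher in NCI-H1703 and NCI-H1703R. CXCL3 was higher in NCI-H1703R, and among sensitive cells its counts were few in both lines. Among sensitive cells, LIF was 57.9-fold higher in NCI-H1703 than in NCI-H1581, with a log2 fold change of 5.86 (SE 0.23) and an adjusted p of 8.44e-07 (edgeR's quasi-likelihood test, Benjamini-Hochberg). CCL2 had 1943 and 1846 counts in NCI-H1703 against 5 and 5 in NCI-H1581, a log2 fold change of 8.60 (SE 0.22; adjusted p = 1.33e-07 in edgeR's quasi-likelihood test). These differences were many times the spread between replicates, and no library of the one line overlapped with the other. CXCL1, with at most 3 counts in NCI-H1581, was at least 12.7-fold higher in NCI-H1703 when its NCI-H1581 level was set to 3 counts per library, and its adjusted p was 0.0137 (edgeR's quasi-likelihood test). CXCL3, with 11 and 2 counts against 0 and 0, was called too (adjusted p = 0.0841 in edgeR's quasi-likelihood test) but not with the replicate block, nor with any 1 library left out, and no fold is given. In all, 4 of the 6 members tested were called, all of them higher in NCI-H1703, against 59.9% of all genes called and 30.8% called higher, so a call between the sensitive lines is common. With the replicate block 3 of the 6 were called, against 57.1%.

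Among resistant cells the same 4 members were called higher in NCI-H1703R than in NCI-H1581R, against 49.1% of all genes called and 24.3% called higher, and the same 4 were called with the replicate block, against 39.9%. LIF differed 377-fold, with a log2 fold change of 8.56 (SE 0.28; adjusted p = 4.11e-05 in edgeR's quasi-likelihood test, adjusted by Benjamini-Hochberg). For the other 3, NCI-H1581R had 1 count or 0 in each library. Set against 3 counts per library, CCL2 was at least 796-fold, CXCL1 at least 166-fold and CXCL3 at least 50.3-fold higher in NCI-H1703R. The comparisons between lines share their libraries with those between variants.

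Per kilobase of transcript, CCL2 was the most abundant member in NCI-H1703 cells. Its mean level was 72.7 CPM per kb (70.9 to 74.5) in NCI-H1703 and 83.7 CPM per kb (69.9 to 97.5) in NCI-H1703R. LIF was next, at 33.5 CPM per kb (27.1 to 39.8) and 36.0 CPM per kb (33.6 to 38.4), respectively. CXCL1 followed with 0.883 CPM per kb (0.875 to 0.892) in NCI-H1703 and 11.0 CPM per kb (9.30 to 12.8) in NCI-H1703R, and CXCL3 with 0.166 CPM per kb (0.0556 to 0.277) and 3.65 CPM per kb (3.56 to 3.74). Neighbours in this order did not overlap between their replicates in either variant.

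Among all genes on this scale, CXCL1 was at a level reached or passed by 64.7% of 17174 genes in NCI-H1703 and by 31.7% in NCI-H1703R, and CXCL3 by 77.0% and 49.7%. CCL2 stood much higher in both, with 6.46% and 5.55% of genes at or above it, and LIF had 14.4% and 13.4%. In NCI-H1581, LIF was the highest member, at 0.579 CPM per kb (0.529 to 0.629), above CCL2 at 0.184 CPM per kb (0.168 to 0.200), and 68.4% of genes were at or above LIF. In NCI-H1581R, LIF at 0.0968 CPM per kb (0.0755 to 0.118) overlapped with CXCL5 (0 to 0.153 CPM per kb), which was counted in replicate 1.

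The receptors through which the CXC members and CCL2 act were not detected in these cells. CXCR1, CCR2 and the decoy receptor ACKR1 had 0 counts in all 8 libraries, which allows up to 3 counts in each, and CXCR2 reached 0.0299 CPM in 1 library and was 0 in the others. IL1R2 and IL1RN, a decoy receptor and an antagonist of interleukin-1, stayed at or below 0.0897 CPM. By contrast, the receptor subunits of LIF and IL6 were present, and LIFR and IL6ST were far higher in NCI-H1703 than in NCI-H1581.

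LIFR, the specific subunit of the LIF receptor, moved in opposite directions with resistance. It had 2.46 and 1.35 CPM in NCI-H1581 and 6.22 and 5.79 CPM in NCI-H1581R, and rose with a log2 fold change of 1.67 (SE 0.40; adjusted p = 0.0440 in edgeR's quasi-likelihood test). In NCI-H1703 it had 122 and 142 CPM against 71.8 and 91.7 CPM in NCI-H1703R, and fell with a log2 fold change of -0.66 (SE 0.14; adjusted p = 0.0408 in edgeR's quasi-likelihood test). The variants did not overlap in either line. The rise lost its call without replicate 2 of NCI-H1581 (adjusted p = 0.203), and the fall without either replicate of NCI-H1703 (adjusted p of 0.118 and 0.272) and in a single fit of all 8 libraries (adjusted p = 0.151), all by edgeR's quasi-likelihood test.

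IL6ST, the shared signalling subunit, had 97.4 and 103 CPM in NCI-H1703 and 59.7 and 75.6 CPM in NCI-H1703R, and fell with a log2 fold change of -0.54 (SE 0.13; adjusted p = 0.0505 in edgeR's quasi-likelihood test). Its call was also lost without either replicate of NCI-H1703 (adjusted p of 0.186 and 0.305) and in the fit of all 8 libraries (adjusted p = 0.316). In NCI-H1581 its log2 fold change was 0.61 (SE 0.49) at 1.69 to 3.63 CPM, with an adjusted p of 0.539 (edgeR's quasi-likelihood test). IL6R, IL1R1 and IL1RAP were not called in either line. IL1R1, the signalling receptor of interleukin-1, had 13.7 to 17.0 CPM in the NCI-H1703 and NCI-H1703R libraries and 0.0531 to 0.449 CPM in those of NCI-H1581 and NCI-H1581R. In all, 1 of the 5 receptor genes tested rose and 0 fell in NCI-H1581R, and 0 rose and 2 fell in NCI-H1703R.

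Of the 80 genes in 7 lists of related genes, receptors included, 56 could be tested. In NCI-H1581R 5 of them rose and 7 fell, and in NCI-H1703R 1 rose and 12 fell, beside 7.16% of all genes higher and 7.09% lower in NCI-H1581R and 6.94% higher and 7.48% lower in NCI-H1703R. With the replicate block the count in NCI-H1703R was 7 higher and 20 lower, where 35.5% of all genes were called.

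Of 13 further CXC and CC ligands, 4 were tested. In NCI-H1703R CCL5, a chemokine that attracts T cells, had 3.60 and 3.33 CPM against 10.9 and 9.72 CPM in NCI-H1703, without overlap, and fell with a log2 fold change of -1.54 (SE 0.20; adjusted p = 0.00765 in edgeR's quasi-likelihood test). It thus moved opposite to CXCL1 and CXCL3 in the same libraries. In NCI-H1581R edgeR and DESeq2 called 0 of the 4, and 1 had an unadjusted p under 0.05. The median log2 fold change was -1.24 in NCI-H1581R and -0.11 in NCI-H1703R, beside 0.04 and 0 over all genes tested. The value for NCI-H1581R rests on 4 uncalled genes. CXCL12 (-1.76) and CX3CL1 (-1.75) were below 1 CPM in every library, while CXCL16 was at -0.74 and CCL5 at -0.006.

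Of 14 other cytokines of the IL-1, IL-6, TNF and CSF families, 7 were tested, and 3 were called in NCI-H1703R. CSF1, the growth factor of macrophages, had 24.0 and 26.2 CPM in NCI-H1703 and 62.5 and 78.7 CPM in NCI-H1703R, and rose with a log2 fold change of 1.52 (SE 0.14; adjusted p = 0.00211 in edgeR's quasi-likelihood test). IL32 fell from 19.7 and 19.2 CPM to 4.78 and 4.83 CPM (log2 fold change -1.98, SE 0.15; adjusted p = 0.00114, same test). IL18, a cytokine of the interleukin-1 family, fell from 21.0 and 23.2 CPM to 7.11 and 6.97 CPM (log2 fold change -1.62, SE 0.15; adjusted p = 0.00203, same edgeR test). The variants did not overlap for any of the 3. In NCI-H1581R edgeR and DESeq2 called 0 of the 7, with 2 at an unadjusted p under 0.05. The list's median was -0.16 in NCI-H1581R and 0.06 in NCI-H1703R.

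**Figure D5:**
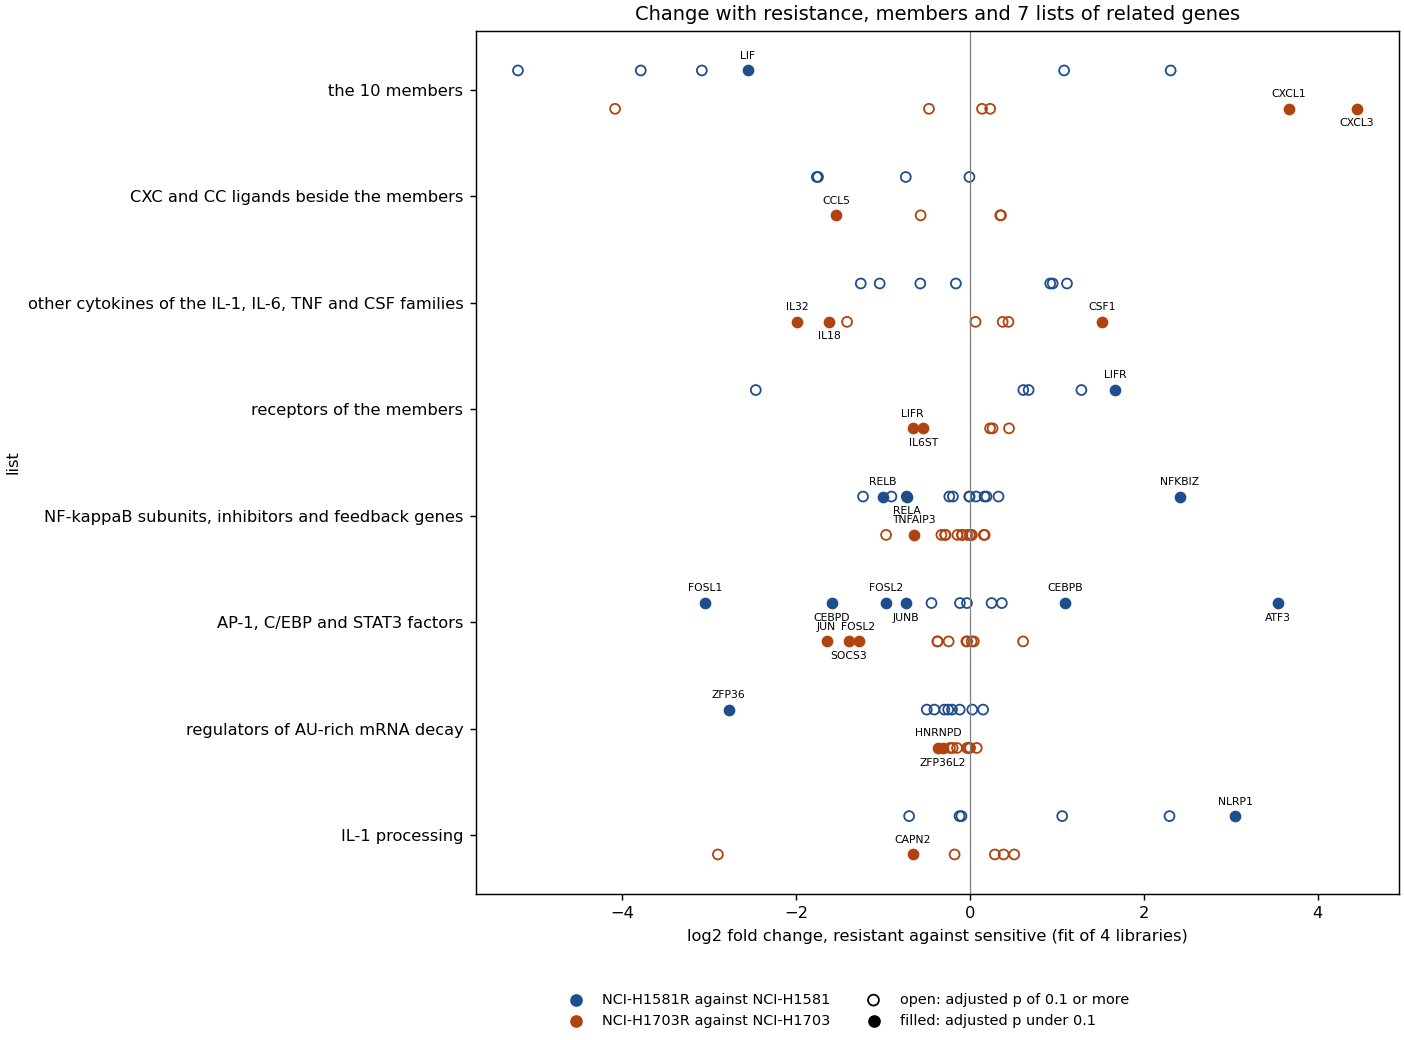
Log2 fold change with resistance of the tested members and of the tested genes of 7 lists (rows), for NCI-H1581R against NCI-H1581 (blue) and NCI-H1703R against NCI-H1703 (orange); filled, named points were called at an adjusted p under 0.1, and open points of members at low counts carry no direction. CXCL1 and CXCL3 are the highest called points in NCI-H1703R, where 12 of the 13 called genes of the lists are below 0.

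All 14 genes of the NF-kappaB list were tested, by RNA level alone, and the activity of NF-kappaB was not tested. In NCI-H1703R 0 rose and 1 fell, beside 6.94% of all genes called higher and 7.48% called lower. That gene was TNFAIP3 (A20), a feedback inhibitor of NF-kappaB, with 15.6 and 15.4 CPM in NCI-H1703 and 9.12 and 10.3 CPM in NCI-H1703R (log2 fold change -0.64, SE 0.15; adjusted p = 0.0495 in edgeR's quasi-likelihood test). Its call was lost in the fit of all 8 libraries (adjusted p = 0.218) and in 3 of the 4 fits with a library left out. With the replicate block 1 rose and 4 fell, in the fit that called 35.5% of all genes, and DESeq2 called 3 of the 14 lower (NFKB2, RELB and TNFAIP3).

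The subunits NFKB1 and RELA and the inhibitor NFKBIA were not called in NCI-H1703R. NFKB1 had 99.0 and 105 CPM against 91.8 and 104 CPM, and RELA 151 and 141 CPM against 141 and 150 CPM, so that the variants overlapped for each. NFKBIA, itself a target of NF-kappaB, had 106 and 116 CPM against 74.2 and 99.0 CPM (log2 fold change -0.33, SE 0.15; adjusted p = 0.240 in edgeR's quasi-likelihood test, and 0.000282 with the replicate block). In NCI-H1581R, 1 gene of the list rose and 2 fell. RELB fell from 21.1 and 20.1 CPM to 10.3 and 10.1 CPM and RELA from 99.3 and 90.3 CPM to 60.4 and 53.7 CPM, without overlap (adjusted p of 0.0224 and 0.0382 in edgeR's quasi-likelihood test). Both calls were lost without either replicate of NCI-H1581. NFKBIZ, an atypical nuclear IkappaB protein, named here after its values were seen, rose from 0.386 and 0.574 CPM to 1.30 and 3.81 CPM (adjusted p = 0.0734, same edgeR test). The list's median was -0.10 in NCI-H1581R and -0.09 in NCI-H1703R.

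Of the 11 AP-1, C/EBP and STAT3 factors, all tested, 2 rose and 4 fell in NCI-H1581R, and 0 rose and 3 fell in NCI-H1703R. In NCI-H1581R, ATF3, a stress-induced factor, rose from 1.51 and 1.37 CPM to 16.0 and 17.5 CPM, with a log2 fold change of 3.54 (SE 0.27; adjusted p = 0.000312 in edgeR's quasi-likelihood test). FOSL1, an AP-1 subunit, fell from 17.9 and 14.2 CPM to 2.05 and 1.80 CPM, with a log2 fold change of -3.05 (SE 0.28; adjusted p = 0.000716, same edgeR test). CEBPB rose with a log2 fold change of 1.09 (adjusted p = 0.00769), and CEBPD fell by 1.59 on that scale (adjusted p = 0.0349), both by edgeR's quasi-likelihood test. FOSL2 and JUNB, named for NCI-H1581R after their values were seen, fell as well (log2 fold changes -0.96 and -0.74). Without replicate 2 of NCI-H1581 the calls of CEBPB (adjusted p = 0.155) and FOSL2 (adjusted p = 0.137) were lost in edgeR's quasi-likelihood test.

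In NCI-H1703R the 3 genes that fell were JUN, FOSL2 and SOCS3. JUN had 59.4 and 57.4 CPM in NCI-H1703 and 15.3 and 21.2 CPM in NCI-H1703R (log2 fold change -1.65, SE 0.16; adjusted p = 0.00276 in edgeR's quasi-likelihood test). FOSL2 fell from 174 and 172 CPM to 63.1 and 76.4 CPM (log2 fold change -1.28, SE 0.11; adjusted p = 0.00173, same edgeR test). SOCS3, which STAT3 induces and which inhibits signalling through IL6ST, fell from 138 and 146 CPM to 44.9 and 61.0 CPM (log2 fold change -1.39, SE 0.15; adjusted p = 0.00366, same edgeR test). The variants did not overlap for any of them, while the level of LIF itself overlapped between the same libraries. With the replicate block 6 genes of this list fell in NCI-H1703R. The list's median was -0.12 in NCI-H1581R and -0.24 in NCI-H1703R.

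Regulators of AU-rich mRNA decay, which set how long cytokine mRNAs last, were all tested. Of the 9, 0 rose and 1 fell in NCI-H1581R, and 0 rose and 2 fell in NCI-H1703R. ZFP36 (tristetraprolin), which marks cytokine mRNAs for decay, had 12.1 and 9.44 CPM in NCI-H1581 and 0.558 and 2.54 CPM in NCI-H1581R (log2 fold change -2.77, SE 0.64; adjusted p = 0.0395 in edgeR's quasi-likelihood test). Its log2 fold change was -2.06 without replicate 1 and -4.27 without replicate 2 of NCI-H1581R, and the call was kept in both fits. In NCI-H1703R it was not called, with 36.4 and 39.2 CPM against 48.7 and 40.1 CPM. The 2 that fell there were HNRNPD and ZFP36L2, by small amounts (log2 fold changes -0.37 and -0.31, adjusted p of 0.0647 and 0.0930 in edgeR's quasi-likelihood test), and both calls were lost in several alternatives, the fit of all 8 libraries included. The list's median was -0.25 and -0.15.

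Of 8 genes of interleukin-1 processing, 6 were tested. CASP1, the protease that matures interleukin-1 beta, and the inflammasome adaptor PYCARD had 6 counts each over all libraries and were not. NLRP1, an inflammasome sensor, rose in NCI-H1581R from 2.02 and 2.12 CPM to 19.1 and 15.1 CPM (log2 fold change 3.05, SE 0.28; adjusted p = 0.000639 in edgeR's quasi-likelihood test). In NCI-H1703R CAPN2, a subunit of the calpain proteases that cleave the interleukin-1 alpha precursor, fell from 396 and 373 CPM to 239 and 238 CPM (log2 fold change -0.65, SE 0.09; adjusted p = 0.0106, same edgeR test), a call lost without either replicate of NCI-H1703. The list's median was 0.48 in NCI-H1581R and 0.05 in NCI-H1703R, and with the replicate block 3 rose and 2 fell in NCI-H1703R. The median in NCI-H1581R takes in NLRP3 and GSDMD, which had a mean below 10 counts in both NCI-H1581 and NCI-H1581R.

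Leukocytes are a major source of these cytokines in tissue. Of 7 leukocyte markers, 2 or 3 reached 3 counts in a library of each variant, and their summed level was 0.299 to 2.57 CPM over the 8 libraries, CD3E and MS4A1 were at 0 in all of them, and PTPRC was at 0 in all NCI-H1703 and NCI-H1703R libraries. LYZ was above the floor, with 8 to 85 counts in every library and more in replicate 1 than in replicate 2 of each variant. Also above it was TYROBP, with 22 and 49 counts in NCI-H1581 and 13 and 7 in NCI-H1581R. PTPRC had 15 counts in each NCI-H1581R library against 2 and 0 in NCI-H1581. The 4 endothelial markers summed to at most 0.449 CPM. The 6 epithelial markers summed to 77.8 to 78.4 CPM in NCI-H1703 and 10.0 to 11.4 CPM in NCI-H1703R. In NCI-H1581 they summed to 23.2 to 23.3 CPM and in NCI-H1581R to 15.7 to 17.1 CPM. Among them, KRT7 had more counts in replicate 2 than in replicate 1 of every variant. The 5 fibroblast markers, collagen genes among them, summed to 2.81 to 3.05 CPM in NCI-H1703 and 23.9 to 27.9 CPM in NCI-H1703R. They summed to 2257 to 2541 CPM in NCI-H1581 and 1016 to 1035 CPM in NCI-H1581R, mostly COL1A2 (2186 and 992 CPM). In NCI-H1581R 4 of the 5 were called lower, and LUM (103 against 0.514 CPM) and DCN (46.1 against 0.158 CPM) fell most. Of the 6 epithelial markers 1 was called lower there, EPCAM (14.5 against 7.71 CPM). Their part in the fall of LIF was not tested. In NCI-H1703R, where CXCL1 and CXCL3 were high, 1 of the 6 epithelial markers was called lower, KRT18 (64.9 against 2.68 CPM), and 1 of the 5 fibroblast markers higher, COL1A1 (0.976 against 24.1 CPM), and these 2 genes carry the difference in the sums. Their part in the result for CXCL1 and CXCL3 was not tested.

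For the members that averaged 5 CPM or more in a variant (CXCL1, LIF and CCL2), the genes with the nearest profile over the 8 libraries were found by the root mean square difference between centred log2 CPM values, among 13365 genes. Nearest to CXCL1 were MCTP1 (0.60), GBP1 (0.63) and SLC1A1 (0.63). GBP1, a guanylate-binding protein, had mean levels of 0.0125, 0, 0.652 and 5.97 CPM in NCI-H1581, NCI-H1581R, NCI-H1703 and NCI-H1703R, and SLC1A1, a glutamate transporter, had 0.0148, 0.0133, 0.992 and 5.31 CPM in the same order. Nearest to LIF were ENSG00000278742 (0.31), STBD1 (0.36) and DIAPH2 (0.38), and nearest to CCL2 were SUN3 (0.41), APOBEC3B (0.45) and CITED2 (0.45). The profiles are set mainly by the difference between the lines.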

How the data were processed

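RNA was measured by paired-end sequencing in 8 libraries, grouped by the line, variant and replicate number in their labels. The authors quantified reads with Salmon against GRCh38 and imported them with tximport, and deposited the estimated count of each gene as a whole number without normalisation. The versions, the annotation and the scaling option are not given in the sources used here. All 8 columns were used.

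Keeping genes whose counts over the 8 libraries summed to at least 10 left 18203 of 37441, and 17177 of them had a GENCODE v44 entry. Each comparison was fitted on its own 4 libraries, and the interaction on all 8, with edgeR 4.0.16 (TMM, quasi-likelihood test with default settings, two-sided) in R 4.3.3. A gene was called at a Benjamini-Hochberg adjusted p under 0.1 over all genes kept. The SE is the size of the log2 fold change divided by the square root of F. CPM used TMM factors over the 8 libraries. Totals of 33800389 to 40031710 counts set the floor of 3 counts. Scripts were tested on simulated data with known changes.

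Replicate numbers in the labels were used to pair the libraries of a line. The authors repeated the procedure for the second replicate, and no pairing of cultures is given in the sources used here. Deviations of same-numbered libraries from their group means correlated at 0.147 in NCI-H1581 and 0.371 in NCI-H1703 over 10729 genes, and between -0.423 and -0.0542 across lines, where the block is thus not borne out by the counts. Replicates differed by more than sampling noise, with a chi-square per degree of freedom of 23.3 to 96.8.

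Named genes are the 10 members and, per list and line, up to 4 called genes with the largest change among those that averaged 5 CPM or more in a variant, the receptors, NFKB1, RELA and NFKBIA, and the 3 nearest profiles among genes of at least 1 CPM (genes of chromosome Y were left out). The members and lists were chosen with earlier results of these data known. Alternatives were DESeq2 1.42.0, RLE normalisation, no filter, at least 10 counts in every library, a replicate block, an adjusted p under 0.05, all libraries in one fit and leaving out each library. Bias-adjusted quasi-dispersions and the block within each line were added after seeing the data.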

Additional observations from a re-analysis of the deposited data

Results flagged for a closer look

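Of the 3 members called in edgeR's interaction test, LIF was the 1 with enough counts in both lines (Benjamini-Hochberg adjusted p = 0.00398), while CXCL1 and CCL2 (adjusted p of 0.0527 and 0.0575) had 5 counts or fewer in every NCI-H1581 and NCI-H1581R library. Its change in NCI-H1703R minus that in NCI-H1581R was 2.66 on the log2 scale, and both of the NCI-H1581R libraries were below both of the NCI-H1581 libraries, while the NCI-H1703 variants overlapped.

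Among the list genes that the naming rule selects, 14 differed between the lines by the same test and the same difference of log2 changes. The rule mostly takes genes called for a change in either line, from libraries that this test uses again. The count of 14 is thus partly fixed by that choice, and 16.1% of all genes tested were called. Lower in this difference were ATF3 (-3.55, adjusted p = 5.99e-05), NLRP1 (-2.69), LIFR (-2.36), SOCS3 (-1.66), JUN (-1.63), CCL5 (-1.56), CEBPB (-1.14) and CAPN2 (-0.579) in edgeR's interaction test. Higher were FOSL1 (2.99, adjusted p = 0.000241), IL1R1 (2.68), ZFP36 (2.55), CEBPD (1.2), RELA (0.723) and RELB (0.702). The adjusted p-values of the 14 genes reached up to 0.0648 (CAPN2) in this edgeR test. Outside the rule, and named after their values were seen, BCL3 (0.863, adjusted p = 0.0521), CXCL16 (1.08, adjusted p = 0.0586), JUND (-0.760, adjusted p = 0.0917) and NFKBIZ (-2.53, adjusted p = 0.0944) were called as well in this edgeR test. IL1R1 was at 0.0531 to 0.449 CPM in the NCI-H1581 and NCI-H1581R libraries.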

How the results depend on the processing

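The counts of members called that moved were these. In NCI-H1581R it was 2 (CCL2 and LIF) in a single fit of all 8 libraries. When at least 10 counts were required in every library of the fit, 1 member was called in NCI-H1703R (CXCL1, as CXCL3 no longer passed the filter), 1 in each comparison between the lines and 1 in the interaction, LIF in these 3. The interaction also called 1 member, LIF, at an adjusted p under 0.05 and with bias-adjusted quasi-dispersions, the latter chosen after seeing the data. With each library left out in turn, where a lone library is assumed to vary like the other group, 1 member was called in NCI-H1581R, 2 to 3 in NCI-H1703R, 3 in NCI-H1703 against NCI-H1581, 4 in NCI-H1703R against NCI-H1581R and 1 to 3 in the interaction, where LIF alone was called without replicate 1 of NCI-H1581 or without either replicate of NCI-H1703. With the replicate block, which follows the replicate numbers of the labels, 1 member was called in NCI-H1581R and 3 in NCI-H1703R (CCL2 in addition). Between the lines, where the counts did not bear out the block, 3 and 4 were called. In the interaction it was 3, also when the block was set within each line.

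Over 13 log2 fold changes of members and their alternatives, 150 values kept their direction and side of the threshold, 2 (CCL2 in NCI-H1703R) newly passed it and 2 changed sign, both in differences that were not called. Without 1 library, LIF in NCI-H1703R ranged from -0.0961 to 0.42 and CCL2 in NCI-H1703R from -0.0275 to 0.46. Over 50 log2 fold changes of list genes and their alternatives, 531 values kept their direction and side of the threshold. Another 33 lost their call, 17 newly passed the threshold and 18 changed sign. Those that changed sign were all uncalled. Without 1 library, the ranges in NCI-H1581R were -0.10 to 0.0781 for CCL5, -0.0112 to 1.04 for IL6ST, -0.37 to 0.36 for JUN and -0.0418 to 0.17 for NFKBIA. In NCI-H1703R they were -0.0834 to 0.12 for ATF3, -0.15 to 0.0839 for CEBPB, -0.17 to 0.0827 for FOSL1, -0.12 to 0.0616 for NFKB1 and -0.0269 to 0.0714 for RELA. JUN in NCI-H1581R was 0.00383 with the replicate block, and in the fit of all 8 libraries ATF3 and RELA in NCI-H1703R were -0.0107 and -0.00994. The cause of these changes was not tested. With 2 replicates per variant, levels below about 0.09 CPM could not be told from 0.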
